A study of Mus musculus with 6 samples.

Results

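The PRAME-like family was followed in mouse embryos exposed to ethylparaben (EtP), a preservative of the paraben group, and in control embryos. Members were the rows whose symbol begins with Oog, Pramel or Pramef and a digit, together with 10 family genes that still carry provisional symbols, such as C87977 and Gm12794. The rule found 27 of the 55549 rows of the expression tables: 4 Oog genes, 6 Pramel genes, 7 Pramef genes and the 10 provisional symbols. Of these, 26 had enough counts to be tested. Pramef12os, which lies antisense to Pramef12, had 1 count in 1 control library and none in the other libraries.

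Early 2-cell embryos were sequenced in 6 libraries of polyadenylated RNA, 3 from embryos kept in culture medium with 40 uM EtP from 4 h after fertilization and 3 from control embryos. Per the series' design text, most embryos in the EtP medium stopped at the stage sampled. The labels give no strain, no number of embryos per library, no hour of collection and no content of the control medium, so the age of the 2 groups cannot be told apart from the exposure. Nothing says that libraries came from separate cultures, so the p-values measure the spread among these libraries, which may be technical. In such bulk samples, fewer cells with a transcript and less of it per cell cannot be told apart.

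PRAME-like proteins are built of leucine-rich repeats and are named after a human antigen of melanoma and testis. Several of them serve as substrate receptors of ubiquitin ligases assembled on the cullin CUL2, as mouse Pramel7 does when it directs UHRF1, the partner of the maintenance DNA methyltransferase, to degradation in mouse embryonic stem cells. The family has multiplied in rodents into clusters of similar genes that are used mainly in germ cells and early embryos. The Oog genes, or oogenesins, are transcribed in growing mouse oocytes and their RNA is stored in the egg, whereas other copies, including Gm12794 and Pramef25, are known from mouse embryonic stem cells in the 2-cell-like state.

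Most of the abundant members were higher in EtP embryos relative to the rest of the transcriptome, and most of the sparse members were lower. Under edgeR's quasi-likelihood test with an adjusted p under 0.05, 8 of the 26 tested members were higher in EtP and 11 were lower. Over all 14373 genes tested, 12.5% were called higher and 18.1% lower. The 11 members that averaged over 100 CPM (counts relative to the library total after scaling by TMM, edgeR's correction for library composition) in control embryos gave 8 higher calls and no lower call. The 15 members under that level gave no higher call and 11 lower calls, and 10 of these 15 did not reach the filter level in all 3 EtP libraries and passed only with their control libraries. The division at 100 CPM was chosen after the values were seen, and the members nearest to it on each side averaged 111 and 47.0 CPM in control.

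The higher calls depended on how the libraries were scaled. TMM factors ran from 0.738 to 0.833 in EtP libraries and from 1.198 to 1.385 in control libraries. With library size alone, the median log2 fold change of all genes moved by -0.73, 3.79% of genes were called higher and 53% lower, and no member was called higher. The 8 members then had log2 fold changes of 0.22 to 0.43 with edgeR adjusted p between 0.0979 and 0.364. The 11 lower members stayed lower under that scaling, the one nearest to 0 at -2.56 and with edgeR adjusted p of at most 0.00178. Each statement below that a member was higher therefore holds relative to the TMM-scaled transcriptome.

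**Figure D1:**
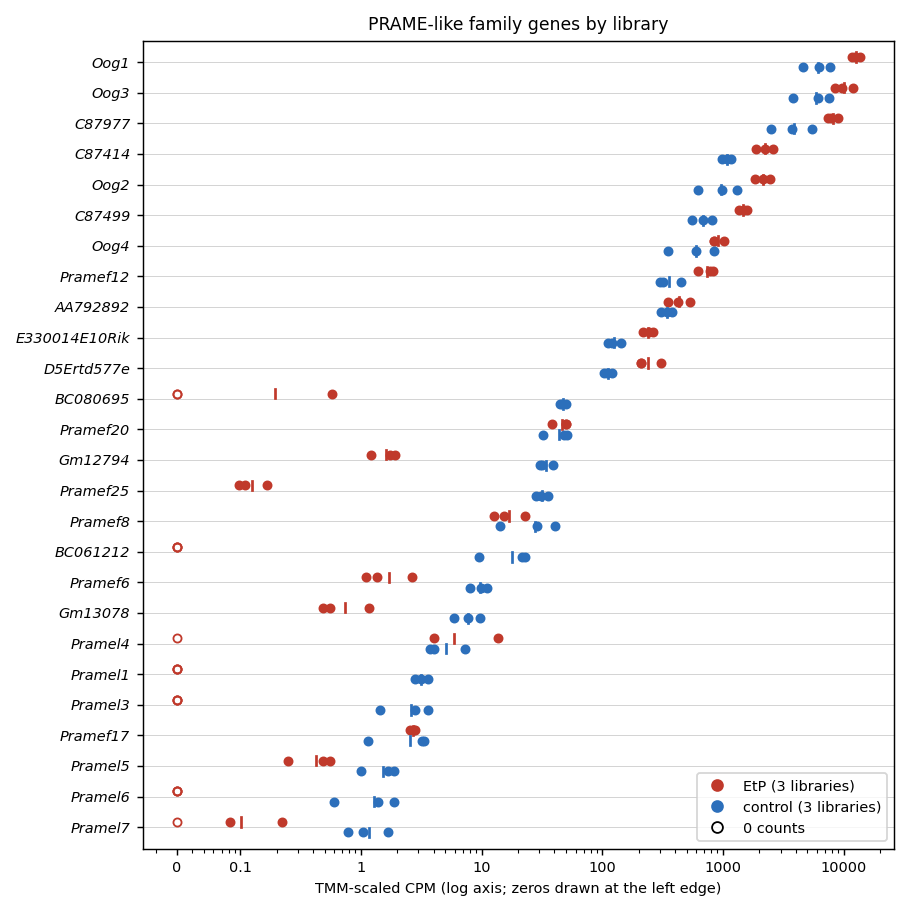
Level of each family member in each library, as TMM-scaled CPM on a log axis, with EtP libraries and control libraries as coloured points and libraries without a count as open points. Oog1, at a mean of 12642 CPM in EtP and 6158 CPM in control, has its EtP points to the right on this scaling though not called with library size alone, while sparse members such as Pramef25 have them far to the left.

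The sequences before the transcription starts were compared because members with similar promoters could be set beside members that moved together. RefSeq promoters of GRCm38.p6, the assembly of mm10, cover 250 bases before and 50 bases from the annotated start and were found for 23 of the 27 members. A script searched both strands for CANNTG (the E-box, bound by basic helix-loop-helix factors), TAATTG (bound by the oocyte homeobox factor NOBOX), GGATTA (bound by OTX and OBOX homeobox factors), TATAAA (the TATA box), the DUX motif and GGTGTGGC, which was picked after the sequences were seen. None of these motifs contains another, but one match can overlap another. The promoters of 6 members are printed 5′ to 3′ on the gene's strand, with matches to the NOBOX, OTX or OBOX, TATA-box and GGTGTGGC motifs on either strand in capitals and E-boxes left in lower case. The first pair, Oog1 (chr12:87602415-87602714, plus strand) and C87977 (chr4:144212968-144213267, minus strand), was higher in EtP, and the other 4 copies were lower: Gm13078 (chr4:143719201-143719500, plus strand), Pramef6 (chr4:143900331-143900630, minus strand), BC080695 (chr4:143567217-143567516, plus strand) and Gm12794 (chr4:101940157-101940456, plus strand).
Oog1: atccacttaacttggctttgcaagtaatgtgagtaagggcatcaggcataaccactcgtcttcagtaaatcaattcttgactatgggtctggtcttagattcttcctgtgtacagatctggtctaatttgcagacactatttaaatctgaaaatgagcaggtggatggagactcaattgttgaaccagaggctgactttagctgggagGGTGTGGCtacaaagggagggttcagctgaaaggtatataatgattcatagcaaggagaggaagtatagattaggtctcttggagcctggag
C87977: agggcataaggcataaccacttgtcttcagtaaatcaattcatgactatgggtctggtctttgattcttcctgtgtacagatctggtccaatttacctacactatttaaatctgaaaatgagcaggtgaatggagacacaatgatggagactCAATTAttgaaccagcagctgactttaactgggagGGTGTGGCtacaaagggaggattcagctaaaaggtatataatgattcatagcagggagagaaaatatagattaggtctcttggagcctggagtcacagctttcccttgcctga
Gm13078: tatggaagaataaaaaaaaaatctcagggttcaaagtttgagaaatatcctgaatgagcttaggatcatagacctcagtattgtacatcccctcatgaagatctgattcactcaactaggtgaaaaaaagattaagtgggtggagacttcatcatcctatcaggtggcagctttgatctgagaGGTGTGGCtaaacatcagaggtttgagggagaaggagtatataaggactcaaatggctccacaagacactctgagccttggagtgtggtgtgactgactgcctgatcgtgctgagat
Pramef6: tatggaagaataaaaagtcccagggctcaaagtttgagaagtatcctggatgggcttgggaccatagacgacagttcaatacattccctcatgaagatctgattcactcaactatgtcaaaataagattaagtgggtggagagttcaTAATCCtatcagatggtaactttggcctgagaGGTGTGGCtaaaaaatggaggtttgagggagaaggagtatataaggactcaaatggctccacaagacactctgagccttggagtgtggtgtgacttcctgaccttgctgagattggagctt
BC080695: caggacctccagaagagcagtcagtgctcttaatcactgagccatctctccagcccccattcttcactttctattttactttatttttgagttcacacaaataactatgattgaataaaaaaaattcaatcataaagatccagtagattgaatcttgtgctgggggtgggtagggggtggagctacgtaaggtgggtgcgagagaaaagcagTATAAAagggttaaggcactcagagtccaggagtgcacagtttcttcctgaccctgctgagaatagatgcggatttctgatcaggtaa
Gm12794: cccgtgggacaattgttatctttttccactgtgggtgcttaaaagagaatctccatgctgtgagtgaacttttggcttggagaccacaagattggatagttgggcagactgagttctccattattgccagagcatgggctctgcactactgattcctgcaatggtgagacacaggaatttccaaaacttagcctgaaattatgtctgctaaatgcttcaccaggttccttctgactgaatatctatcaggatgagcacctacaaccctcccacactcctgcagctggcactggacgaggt
Oog1 and C87977 were 82.67% identical over the 300 bases, though they lie on different chromosomes. Both hold GGTGTGGC, beginning at position -42 in Oog1 and -63 in C87977, counted from the RefSeq start. C87977 also holds TAATTG on the opposite strand at -98, and Oog1 has no match to it. Gm13078 and Pramef6 were 86.67% identical and hold GGTGTGGC too, at -67 and -71, although they were lower in EtP. BC080695 has TATAAA at -38, and Gm12794 has none of the capitalised motifs in this window.

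Among the 4 Oog genes, 2 were called higher in EtP, none was called lower and 2 did not pass the test, and their median log2 fold change was 0.91 against -0.19 over all genes tested. None of the 4 was called with library size alone, and their median was then 0.19. Oog1, an oocyte-stored family member on chr12:87602688-87608850 of mm10, plus strand, had 13726, 12483 and 11718 CPM in the 3 EtP libraries, against 7678, 6224 and 4573 CPM in the 3 control libraries. Every EtP library stood above every control library. The means were 12642 ± 1014 CPM in EtP and 6158 ± 1553 CPM in control (SD, n = 3 each), a log2 fold change of 1.04 ± 0.23 (SE, adjusted p = 0.00768 by edgeR). Scaling by library size alone gave 0.32 (edgeR adjusted p = 0.165).

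Oog2 lies on chr4:144190719-144196934, plus strand, near Oog3 in the large cluster of chromosome 4. It had 2476, 2137 and 1826 CPM in EtP libraries, against 1304, 980 and 622 CPM in control libraries, without overlap between the groups. Its log2 fold change was 1.15 ± 0.28 (SE, adjusted p = 0.0106 by edgeR). The call was absent with library size alone.

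Oog3 on chr4:144157557-144162663, minus strand, was among the most abundant members and did not pass the test. It had 11967, 8444 and 9719 CPM in EtP libraries, against 7588, 6186 and 3822 CPM in control libraries. These ranges did not overlap, yet the replicates were spread widely, with means of 10043 ± 1784 CPM in EtP and 5865 ± 1903 CPM in control (SD, n = 3 each) and a log2 fold change of 0.78 ± 0.27 (SE, adjusted p = 0.0526 by edgeR). Its side of the threshold depended on the method: it passed with RLE scaling (adjusted p = 0.0491), without the filter (adjusted p = 0.0117) and without control replicate 1 (adjusted p = 0.00458) in edgeR, with DESeq2 (adjusted p = 0.0163) and with limma-voom (adjusted p = 0.0445). Under library size alone its log2 fold change was 0.06 (edgeR adjusted p = 0.824).

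Oog4 lies apart from Oog2 and Oog3 on chr4:143437164-143450324, minus strand. It had 1028, 839 and 842 CPM in EtP libraries, against 849, 598 and 348 CPM in control libraries, and control replicate 1 lay within the EtP range. Its log2 fold change was 0.59 ± 0.30 (SE, adjusted p = 0.155 by edgeR). Without control replicate 1 it was 1.02 (edgeR adjusted p = 0.00633), and with library size alone it was -0.11.

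Per unit of transcript length, in the authors' deposited TPM, Oog1 was the highest member in both groups, with 8132 ± 514 TPM in EtP and 6298 ± 539 TPM in control (SD, n = 3 each). Oog3 followed with 5997 ± 1040 TPM in EtP and 5372 ± 968 TPM in control, and the 2 groups overlapped on this scale. In control the ranges of mean ± SD of Oog1 and Oog3 overlapped, though Oog1 was above Oog3 in every library. C87977 was next with 5256 ± 319 TPM in EtP and 4049 ± 849 TPM in control. The ranges of mean ± SD of Oog3 and C87977 overlapped in both groups, so their order was not resolved. Oog2 held the fourth place with 3257 ± 240 TPM in EtP and 2249 ± 476 TPM in control. C87414 came next with 2658 ± 501 TPM in EtP and 1840 ± 77.7 TPM in control, and its range of mean ± SD overlapped that of Oog2 in both groups. Oog4 had 552 ± 55.0 TPM in EtP and 554 ± 144 TPM in control, and on this scale the group means were nearly equal.

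The control libraries differed among themselves in these genes. In TMM-scaled CPM, replicate 1 was the highest and replicate 3 the lowest control library for each of the 4 Oog genes and for C87977 and C87499. Among the EtP libraries replicate 1 was also the highest in CPM for these 6 genes. The lowest EtP library in CPM was replicate 3 for Oog1, Oog2 and C87977 and replicate 2 for Oog3, Oog4 and C87499. In TPM the order differed for some of these genes. Control replicate 2 was then the highest control library for Oog3 and C87499, and EtP replicate 3 the highest EtP library for Oog1 and C87499.

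C87977, named Pramel29 in RefSeq, lies near Oog2 on chr4:144206775-144213318, minus strand, and its coding sequence was 96.17% identical to that of Oog1. It had 8997, 7834 and 7470.5 CPM in EtP libraries, against 5423, 3723 and 2509 CPM in control libraries, again without overlap. The log2 fold change was 1.06 ± 0.28 (SE, adjusted p = 0.0153 by edgeR), close to the value of Oog1. Expected counts divide reads that match both genes, so the separate levels of Oog1 and C87977 are uncertain. The call was lost without EtP replicate 1 (edgeR adjusted p = 0.0585), without control replicate 2 (edgeR adjusted p = 0.0645), with a filter of at least 10 CPM in 3 libraries (edgeR adjusted p = 0.0526), with library size alone (edgeR adjusted p = 0.204) and with limma on TPM (adjusted p = 0.0823).

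Of the 5 other provisional symbols over 100 CPM in control, 4 were called higher in EtP with TMM scaling and AA792892 was not called. C87414 on chromosome 5, Pramel34 in RefSeq, had 2619, 1882 and 2239 CPM in EtP libraries, against 1164, 1073 and 984 CPM in control libraries. C87499 on chromosome 4, Pramel32 in RefSeq, had 1572, 1346 and 1484 CPM in EtP libraries, against 808, 677 and 552 CPM in control libraries. Both pairs of ranges were separate, with log2 fold changes of 1.06 ± 0.21 for C87414 and 1.11 ± 0.21 for C87499 (SE, adjusted p = 0.00374 and 0.00335 by edgeR). Neither was called with library size alone.

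D5Ertd577e and E330014E10Rik on chromosome 5 were 99.93% identical in coding sequence, so reads can hardly be assigned to one or the other and their values are best read together. D5Ertd577e had 305, 211 and 207 CPM in EtP libraries, against 104, 110 and 120 CPM in control libraries (log2 fold change 1.12 ± 0.22, SE, adjusted p = 0.00408 by edgeR). E330014E10Rik had 262, 217 and 245 CPM in EtP libraries, against 143, 121 and 112 CPM in control libraries (log2 fold change 0.94 ± 0.20, SE, adjusted p = 0.00611 by edgeR). In CPM both copies were higher in every EtP library than in any control library. In TPM the groups overlapped for both, and limma on TPM called neither (adjusted p = 0.151 for D5Ertd577e and 0.23 for E330014E10Rik). The coding sequence of AA792892, 834 bases long, was 96.28% identical to the part of that of C87414 (1425 bases) it aligned with. Expected counts divide reads that match both genes, so the separate levels of AA792892 and C87414 are uncertain. AA792892 had 530, 351 and 425 CPM in EtP libraries, against 382, 344 and 307 CPM in control libraries. Its groups overlapped, and its log2 fold change of 0.34 ± 0.22 did not pass (SE, adjusted p = 0.267 by edgeR). The value of AA792892 turned to -0.39 with library size alone.

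Pramef12, known in mouse for its part in the maintenance of spermatogonia, was the only Pramef gene called higher. It had 831, 617 and 776 CPM in EtP libraries, against 301, 452 and 318 CPM in control libraries, and the groups did not overlap. The log2 fold change was 1.05 ± 0.23 (SE, adjusted p = 0.00685 by edgeR). In TPM, which carries no TMM scaling, it averaged 513 ± 78.6 in EtP and 459 ± 114 in control (SD, n = 3 each). The length of its transcripts, weighted by isoform in the deposited tables, was 1627 ± 64.5 bases in EtP and 1409 ± 98.3 bases in control. On TPM, limma did not call it (adjusted p = 0.507). With library size alone it was not called either.

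Transcript length could be compared for the 13 members with at least 100 counts in each library, and it varied by over 1% between libraries in 8 of them. In 3 of these 8 the groups did not overlap, Pramef12, C87977 and AA792892, against 28% of all genes that met both conditions. C87977 had 1723 ± 16.9 bases in EtP and 1645 ± 19.3 bases in control. AA792892 was shorter in EtP, with 1858, 1862 and 1860 bases, against 1886, 1894 and 1889 bases in control. These are the authors' estimates of the isoform mixture and were given no test.

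**Figure D2:**
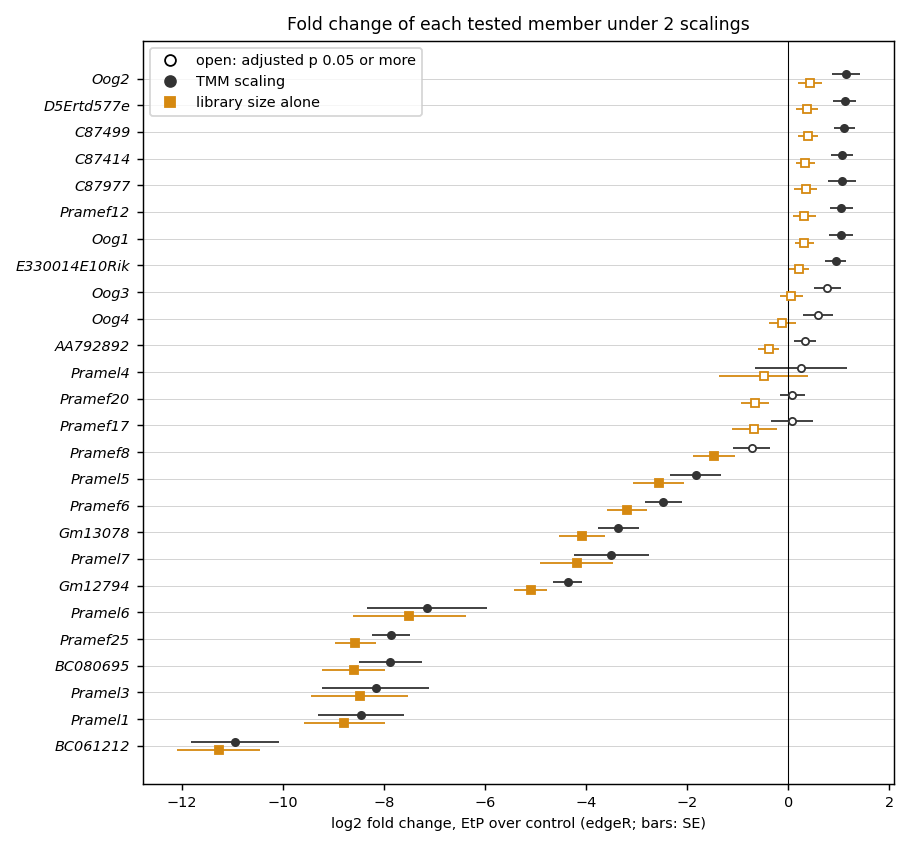
Log2 fold change of each tested member, EtP over control, from edgeR with TMM scaling and with library size alone, with bars for the SE. The 8 members called higher lie near 1 with TMM scaling and between 0.22 and 0.43 with library size alone, while the 11 members called lower stay below 0 under both.

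The members called lower had modest levels in control embryos and few or no counts in EtP embryos. Apart from Gm12794 and Pramef6, they did not reach the filter level in all 3 EtP libraries and passed only with their control libraries. Summed over the 11 members called lower, the level was 4.73, 3.76 and 6.21 CPM in EtP libraries, against 154, 145 and 174 CPM in control libraries. They contributed 0.0107, 0.0103 and 0.0169% of the family's counts in EtP libraries, against 0.592, 0.702 and 1.20% in control libraries. The sum covers members chosen by their calls and is given as a description.

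Gm12794, Pramel19 in RefSeq, lies on chr4:101940407-101943183, plus strand, away from the main cluster. It had 1.74, 1.22 and 1.90 CPM in EtP libraries, against 30.6, 31.7 and 39.3 CPM in control libraries. The EtP libraries held a small but countable remainder, with a log2 fold change of -4.37 ± 0.29 (SE, adjusted p = 5.23e-06 by edgeR). Over all alternatives tried its log2 fold change stayed between -5.10 and -4.17.

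Pramef25, Pramel16 in RefSeq, on chr4:143948580-143951016, minus strand, had 0.10, 0.11 and 0.17 CPM in EtP libraries, against 28.3, 35.4 and 31.3 CPM in control libraries. Its 4 rounded counts in EtP and 1623 in control gave a level 251-fold lower in EtP (97.7 to 921 at 95% counting confidence, edgeR adjusted p = 1.01e-06). Intervals and floors of this kind cover counting error only, since PCR copies carried no molecular identifiers. BC080695, Pramel20 in RefSeq, was 96.95% identical to Pramef25 in coding sequence. It had 0.58, 0 and 0 CPM in EtP libraries, against 44.9, 46.0 and 50.2 CPM in control libraries. Its 6 counts in EtP, all in replicate 1, and 2392 in control gave a level 246-fold lower (95% counting interval 113 to 672, edgeR adjusted p = 1.35e-05). Without EtP replicate 1 no count of BC080695 remained in EtP. The split of reads between such similar copies is uncertain.

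BC061212 on chr5:94066151-94070545, minus strand, Pramel37 in RefSeq, had no count in the 3 EtP libraries, against 22.7, 9.57 and 21.6 CPM in control libraries. With a floor of 3 counts over the EtP group, it was at least 184-fold lower (edgeR adjusted p = 5.52e-05). Its counts were the same in every library as those of Gm7978, a relative outside the symbol rule, so reads cannot be assigned to one or the other of the pair.

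A second pair of similar genes kept a low level in EtP embryos. Gm13078, Pramel24 in RefSeq, had 0.483, 0.552 and 1.159 CPM in EtP libraries, against 7.68, 5.92 and 9.74 CPM in control libraries (log2 fold change -3.36 ± 0.41, SE, adjusted p = 0.000239 by edgeR). Pramef6, whose coding sequence was 95.71% identical to it, had 1.35, 1.10 and 2.65 CPM in EtP libraries, against 9.842, 8.092 and 11.035 CPM in control libraries (log2 fold change -2.47 ± 0.37, SE, adjusted p = 0.000761 by edgeR). In both genes EtP replicate 3 was the highest EtP library and still below every control library.

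Of the 6 Pramel genes, 5 were called lower, all at control levels under 4 CPM on average, against 18.1% of all genes tested. None of the 6 reached the filter level in all 3 EtP libraries, so they passed only with their control libraries. Pramel1, which is expressed in mouse testis, had no count in EtP libraries, against 2.82, 3.12 and 3.57 CPM in control libraries, and was at least 33.2-fold lower (edgeR adjusted p = 0.000193). The X-linked Pramel3, also a testis gene, had none in EtP libraries, against 3.60, 1.43 and 2.79 CPM in control libraries, and was at least 26.8-fold lower (edgeR adjusted p = 0.000751). Pramel6 and Pramel7 on chromosome 2 are known from the inner cell mass and from mouse embryonic stem cells. Pramel6 had no count in EtP libraries, against 0.60, 1.38 and 1.88 CPM in control libraries, which made it at least 13.4-fold lower (edgeR adjusted p = 0.00265). Pramel7 had 3 counts in EtP and 61 in control, 12.6-fold lower (95% counting interval 4.10 to 62.6, edgeR adjusted p = 0.00549). Its log2 fold change of -3.50 became -4.45 without EtP replicate 2 and -2.91 without EtP replicate 1.

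Pramel5 had the lower call nearest to 0. It had 0.48, 0.55 and 0.25 CPM in EtP libraries, against 1.68, 1.00 and 1.88 CPM in control libraries, with a log2 fold change of -1.83 ± 0.50 (SE, adjusted p = 0.0183 by edgeR). The call was lost with DESeq2 (adjusted p = 0.0816) and, in edgeR, without EtP replicate 1, 2 or 3 (adjusted p = 0.0729, 0.0555 and 0.0981) or control replicate 3 (adjusted p = 0.0527).

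The 4 remaining tested members were sparse and did not pass. Pramef8 had 15.2, 12.6 and 22.8 CPM in EtP libraries, against 14.2, 29.0 and 40.6 CPM in control libraries, and its log2 fold change of -0.72 ± 0.37 became -1.47 with library size alone (SE, adjusted p = 0.166 and 0.0118 by edgeR). Without control replicate 1 it was -0.94 and passed (edgeR adjusted p = 0.0126). In TPM Pramef8 had 5.20, 4.69 and 8.67 in EtP libraries, against 11.3, 18.3 and 27.2 in control libraries, without overlap, and limma on TPM called it lower (adjusted p = 0.00775). Pramef20 had 50.3, 38.1 and 50.3 CPM in EtP libraries, against 32.2, 50.6 and 48.6 CPM in control libraries, with a log2 fold change of 0.08 ± 0.25 (SE, adjusted p = 0.835 by edgeR). Pramef17 had 2.80, 2.54 and 2.73 CPM in EtP libraries, against 1.14, 3.33 and 3.18 CPM in control libraries (edgeR adjusted p = 0.909). In CPM the groups of all 3 overlapped, and the signs of Pramef20 and Pramef17 turned with library size alone. Pramel4 varied most, with 13.8, 0 and 4.06 CPM in EtP libraries, against 7.32, 4.02 and 3.76 CPM in control libraries (edgeR adjusted p = 0.861).

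Across the 26 tested members, the TMM-scaled CPM of the groups did not overlap in 20, against 46.8% of all genes tested. In TPM they did not overlap in 16, against 57.1%. Of the 26, 10 did not reach the filter level in every EtP library and passed only with their control libraries. Such entry favours separate groups, and all of these but Pramel4 were separate on both scales. The comparison with all genes is therefore given as a description. The 11 members over 100 CPM in control all reached the filter level in EtP. Their groups did not overlap in 9 in CPM and in 4 in TPM. The median log2 fold change of the 26 tested members was 0.08, between an Oog median of 0.91 and a median of -1.28 for the 22 members with other names.

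Because the abundant members carry nearly all the family's RNA, the summed level followed them. All 27 members together reached 44399, 36418 and 37038 CPM in EtP libraries, against 25952, 20720 and 14539 CPM in control libraries, with means of 39285 ± 4440 CPM in EtP and 20404 ± 5713 CPM in control (SD, n = 3 each). The log2 ratio of these sums was 0.95, and 0.23 with library size alone. As a share of all counts the family held 3.27, 2.77 and 3.08% in EtP libraries, against 3.10, 2.66 and 2.00% in control libraries, and on this unscaled measure the groups overlapped. The 4 Oog genes made up 65.8, 65.6 and 65.1% of the family's counts in EtP libraries, against 67.1, 67.5 and 64.4% in control libraries, so the proportion of Oog RNA within the family overlapped between the groups.

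In their order along the chromosome, members called in opposite directions lay side by side. On chromosome 4, 17 members were tested, of which 4 were called higher, 7 lower and 6 neither. Oog2 and C87977, both higher, are followed by Pramel5, which was lower. On chromosome 5, 3 of 5 tested members were higher, BC061212 was lower and AA792892 was not called. Both members on chromosome 2 and the one on the X chromosome were lower, and Oog1 alone represented chromosome 12.

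**Figure D3:**
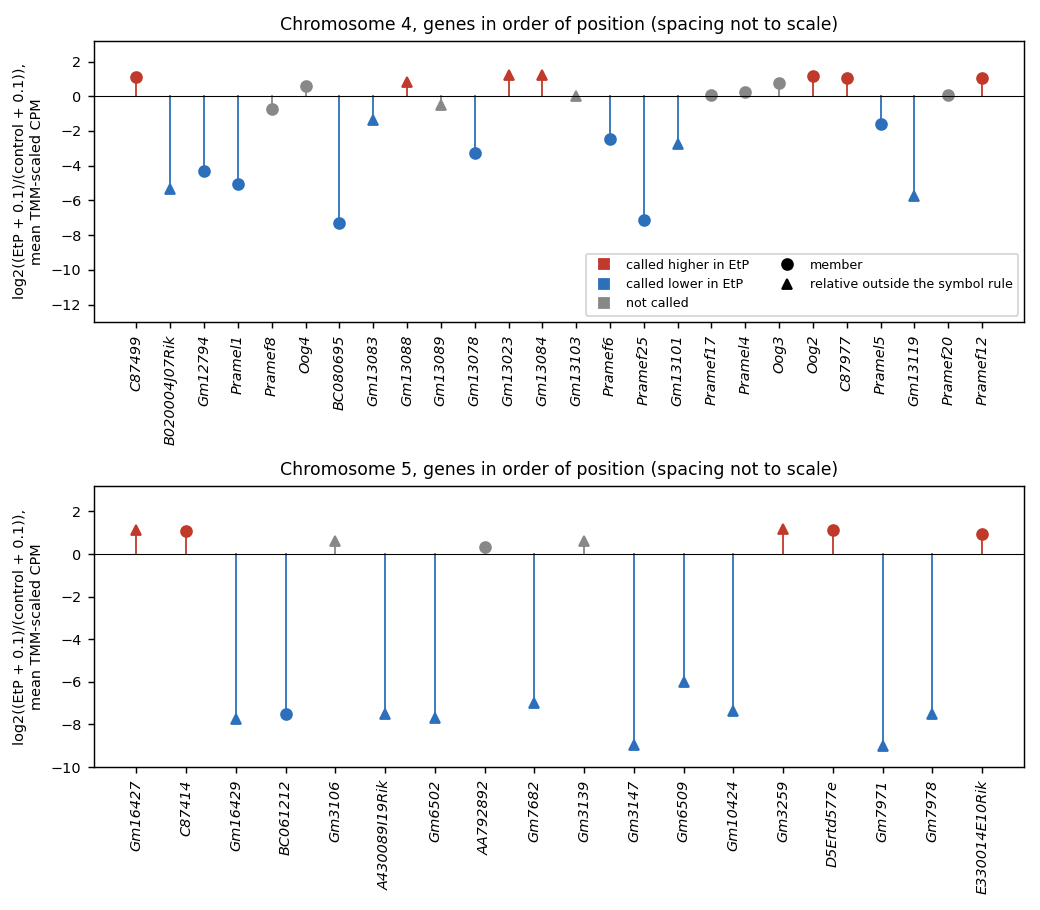
Log2 ratio of mean TMM-scaled CPM in EtP over control, with 0.1 CPM added to each mean, for family members (circles) and relatives outside the symbol rule (triangles) in their order along chromosomes 4 and 5. Colours give the edgeR call with TMM scaling, and genes called higher, lower and neither are interspersed. With library size alone no member is called higher.

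The printed promoters of Oog1 and C87977 belong to a group of similar sequences, which also takes in Oog2, Oog3, Oog4 and C87499. Their 15 pairs were 68.67 to 82.67% identical, against a median of 52.67% over the other 238 pairs of members. This group of 6 was picked after its values were seen. Of its genes, 4 were called higher in EtP and Oog3 and Oog4 were not called, with no call among the 6 under library size alone. In coding sequence the 6 were 75.0 to 96.17% identical, against a median of 64.8% over all 325 pairs of 26 members. Outside the group, the promoters of Gm13078 and Pramef6, both called lower, were 86.67% identical. Those of Pramel4 and Pramel5 were 89.0% identical, with Pramel5 called lower and Pramel4 not called. Those of Pramef17 and Pramel7 were 78.33% identical, with Pramel7 called lower and Pramef17 not called.

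GGTGTGGC was in 9 of the 23 promoters (39.13%), against 2.88% of 27025 promoters of the same length. The 9 were the 6 Oog-type genes and the lower-called BC061212, Gm13078 and Pramef6. TAATTG was in 7 of 23 (30.43%), against 8.15% of all promoters. It was found in 5 of the 7 promoters of members called higher, in none of the 11 of members called lower and in 2 of the 5 of members not called. Oog1 and Oog2, both called higher, do not hold it. The promoters are related copies, so these counts are not independent, and a match describes letters and not a bound site.

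The remaining motifs were counted in the same promoters. An E-box was in 21 of 23 promoters (91.3%), against 72.15% of all promoters. TATAAA was in 4 of 23 (17.39%), those of Oog2, Oog3, BC061212 and BC080695, against 14.16% of all promoters. GGATTA was in 3 of 23 (13.04%), those of Pramef6, Pramel4 and Pramel5, against 7.16% of all promoters. Only the exact letters were searched, so a promoter without TATAAA may hold another form of TATA box. The printed promoters of Oog1, C87977, Gm13078 and Pramef6 hold tatataa, which was not searched for. No member's promoter held the DUX motif, which was in 0.04% of all promoters.

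**Figure D4:**
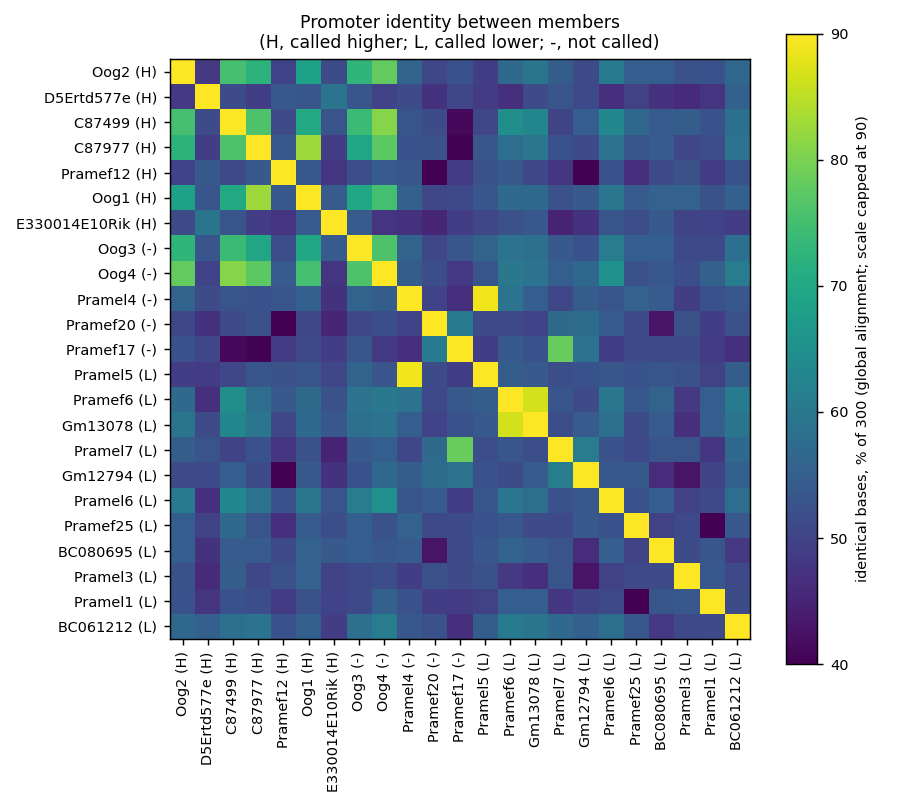
Percent identity between the 300-base promoters of each pair of members with a RefSeq promoter, drawn as a matrix with the scale in the colour bar. The 6 Oog-type genes form a block of 68.67 to 82.67% identity, and Gm13078 and Pramef6, both called lower, were 86.67% identical. Pramel4 and Pramel5 were 89.0% identical, with Pramel5 called lower and Pramel4 not called.

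The CUL2 ligase that PRAME-like proteins join was covered by a list of 22 genes, of which 20 were tested. The list also holds Uhrf1, a target and not a part of the ligase, and genes that act on cullins in general, such as Nedd8. None was called higher and 4 of the 20 were called lower, a share near the 18.1% of all genes called lower, with a median log2 fold change of -0.23 against -0.19 over all genes tested. Library size alone gave 0 higher and 12 lower of 20, near the 53% of all genes called lower with that scaling. At an unadjusted p under 0.05, edgeR gave 2 higher and 5 lower, and at the adjusted threshold DESeq2 gave 1 higher and 3 lower and limma-voom 0 higher and 4 lower. Single libraries moved these counts: the 4 lower calls became 0 without EtP replicate 1, 2 without EtP replicate 2, 1 without EtP replicate 3 and 1 without control replicate 2, and 3 genes were called higher without control replicate 1 and 1 without control replicate 3. The scaffold Cul2 had 26.1, 25.6 and 18.9 CPM in EtP libraries, against 17.9, 20.6 and 22.5 CPM in control libraries, with overlapping groups and a log2 fold change of 0.21 (edgeR adjusted p = 0.530). Rbx1, the RING subunit, had a log2 fold change of 0.02 and Eloc, which encodes the adaptor elongin C, one of -0.44 (edgeR adjusted p = 0.971 and 0.329).

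The 4 lower calls included Elob, the adaptor elongin B, with a log2 fold change of -2.26 ± 0.58 at 0.414 ± 0.318 CPM in EtP and 2.10 ± 0.760 CPM in control (SE for the fold, SD with n = 3 each for the levels, edgeR adjusted p = 0.0142). Vhl, another substrate receptor of CUL2, changed by -2.84 ± 0.75 (SE, adjusted p = 0.0165 by edgeR). Elob, with 14 counts in EtP and 109 in control, and Vhl, with 5 in EtP and 61 in control, passed the filter on low counts only through their control level. Nedd8, the modifier that activates cullins, had 32.9, 39.8 and 33.4 CPM in EtP libraries, against 102, 64.5 and 44.5 CPM in control libraries (log2 fold change -0.99 ± 0.30, SE, adjusted p = 0.0279 by edgeR). Klhdc10, a kelch-domain receptor, changed by -0.99 ± 0.29 (SE, adjusted p = 0.0254 by edgeR). Uhrf1, the target of Pramel7 in embryonic stem cells, had 293, 301 and 304 CPM in EtP libraries, against 130, 254 and 287 CPM in control libraries. Its EtP libraries were all above control, but control replicate 1 lay far below the other 2, and the log2 fold change of 0.42 did not pass (edgeR adjusted p = 0.281).

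Library totals ran from 11906206 to 14512216 counts in EtP and from 11173295 to 14737152 in control, while genes with a count numbered 19321 to 19713 in EtP and 25971 to 26103 in control. Of 13 oocyte-derived genes, all tested, 9 were called higher and none lower, against 12.5% and 18.1% of all genes tested. Gdf9 was among the 9 and Zp3 was not (edgeR adjusted p = 0.215). At an unadjusted p under 0.05 in edgeR, 10 were higher and none lower. At the adjusted threshold DESeq2 gave 10 and none and limma-voom 9 and none. Library size alone gave 4 higher and 1 lower, against 3.79% and 53% of all genes. The summed level of the 13 genes was 23033 to 25615 CPM in EtP and 6898 to 9928 CPM in control, and its part in the higher family levels was not tested. Of 12 cumulus and granulosa genes, 2 were at 0 in all libraries (Ptx3 and Amh), 4 were tested and 2 were called lower, Tnfaip6 and Fshr. Neither of these reached the filter level in all 3 EtP libraries, so both passed only with their control libraries. The summed level of the 12 genes was 17.4 to 19.6 CPM in EtP and 18.1 to 40.8 CPM in control. Of 8 sperm genes, 3 were at 0 in all libraries and 1 was tested, Prm2, which was called lower, and the summed level was 2.90 to 3.43 CPM in EtP and 5.84 to 12.9 CPM in control. The part of these cells in the lower family levels was not tested. Oocytes and zygotes were not analysed here, so stored and newly made transcripts of a family gene cannot be told apart in these libraries.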

How the data were processed

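Libraries were made with Smart-seq2 from polyadenylated RNA of early 2-cell embryos, per the labels' protocols. This method keeps no strand, so reads from any sequence that an antisense gene such as Pramef12os shares with its partner cannot be assigned by strand. The submitters' processing notes name cutadapt 1.16, STAR and the mm10 assembly. Which program counted the reads is not given in the sources used here. Deposited by the authors were an expected count, a TPM and an isoform-weighted length for each gene, per the file headers. The expected count shares ambiguous fragments between genes: 10.6% to 11.1% of rows in EtP and 15.4% to 16.0% in control were not whole within 0.005, and all were rounded. The deposited TPM, which the authors scaled for transcript length, served to compare levels between genes.

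EtP and control (3 libraries each) were compared in R 4.3.3 with edgeR 4.0.16, using filterByExpr, TMM scaling, robust quasi-likelihood fits and Benjamini-Hochberg adjustment at 0.05 over all genes tested. The script was tested on simulated data without a built-in shift in composition between the groups, so that test cannot check the scaling. Values are mean ± SD, and a group without counts was given a floor of 3. Alternatives used limma 3.58.1 (voom, and log2 of TPM + 0.1), DESeq2 1.42.0, other scalings and filters, a replicate block and leaving out each library. Positions came from GENCODE M21, names and promoters from RefSeq. Coding sequences were compared by base identity in place of proteins. Members outside the Oog names were to be named if among the 8 most abundant in either group or called at least 4-fold, and the others are named here to account for every member. The members and lists were chosen with earlier results of these data known.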

Additional observations from a re-analysis of the deposited data

How the results depend on the processing

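Of the 26 tested members, 25 kept direction and side of the threshold with RLE scaling, all 26 with upper-quartile scaling, 25 with no filter, 24 with DESeq2, 24 with limma-voom and all 26 when fractional counts were rounded down, a choice made after seeing the data, as were the bound for members without an EtP count and the summed level by library size. Only 12 of the 26 kept both with library size alone and 17 with limma on log2(TPM + 0.1). With a replicate block 23 did, without single libraries 21 to 25, and with the 10 CPM filter 16 of 18. The count of higher members, 8, became 0 with library size alone and 4 with limma on log2(TPM + 0.1), and 7 to 10 without single libraries. The count of lower members, 11, became 5 when at least 10 CPM in 3 libraries was required, since only 18 members were then tested, and 10 to 12 without single libraries. The median log2 fold change of 0.08 became -0.67 with library size alone and -1.02 on TPM, and -0.28 to 0.22 without single libraries. The Oog median of 0.91 became 0.19 with library size alone, 0.66 with the 10 CPM filter and 0.27 on TPM, and 0.74 to 1.21 without single libraries. The median of -1.28 for other names became -2.02 with library size alone, -0.044 with the 10 CPM filter, -1.66 with limma-voom and -1.65 on TPM, and -1.56 to -0.96 without single libraries. With members lacking an EtP count at their bound it was -1.28. The log2 ratio of summed levels, 0.95, became 0.23 with library size alone. The CUL2 count of 0 higher became 2 with no filter, 1 with DESeq2 and 0 to 3 without single libraries. The CUL2 count of 4 lower became 12 with library size alone, 2 with the 10 CPM filter, 10 on TPM and 0 to 5 without single libraries. Values that changed sign were all among members not called. With library size alone these were Oog4 (-0.11), Pramef17 (-0.67), Pramel4 (-0.49), Pramef20 (-0.66) and AA792892 (-0.39). On TPM they were Pramef17 (-0.41), Pramel4 (-1.73), Pramef20 (-0.56) and AA792892 (-0.31). Pramel4 also turned with limma-voom (-1.58) and without EtP replicate 1 (-1.21), Pramef20 with the 10 CPM filter (-0.17) and without control replicate 1 (-0.005), and Pramef17 without control replicate 1 (-0.18). Without single libraries Pramef17 ranged from -0.18 to 0.41 and Pramel4 from -1.21 to 0.86. Apart from the smaller number of members tested with the 10 CPM filter, the cause of these changes was not tested. All 4 Oog genes were still tested with that filter. The log2 fold changes of Oog1, Oog2, Oog3 and Oog4 were then 0.785, 0.896, 0.525 and 0.342.

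The labels do not say that equal replicate numbers pair libraries, and same-numbered libraries correlated at 0.184, 0.005 and 0.363 in their deviations from the group means. With a replicate block, 10 members were higher and 11 lower, with Oog3 (adjusted p = 0.00691 in edgeR) and Oog4 (adjusted p = 0.0223 in edgeR) added to the higher calls, 3 CUL2 genes were higher, and Pramel4 turned to -0.39. Of the 26 tested members, 10 did not reach the filter level in all 3 EtP libraries.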

Other observations

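The symbol rule leaves out 25 rows that RefSeq names as Pramel or Oog relatives and the tables list under provisional symbols, most beginning with Gm. Of the 23 that were tested, 6 were called higher in EtP, 13 lower and 4 neither by edgeR. Over all genes tested, 12.5% were called higher and 18.1% lower. Apart from Gm13083, the relatives called lower did not reach the filter level in all 3 EtP libraries and passed only with their control libraries. No count was found in EtP libraries for 4 of the 25. With library size alone the 6 called higher had log2 fold changes of 0.08 to 0.65, and Gm10436, Gm13084 and Gm13023 were still called (edgeR adjusted p = 0.0137, 0.0431 and 0.0495). That scaling called 3.79% of all genes higher. The division by level seen among the members did not hold for every relative. Gm13088, at 11.2 CPM in control on average, and Gm16427, at 6.85 CPM, were called higher (adjusted p = 0.048 and 0.0105 by edgeR). Gm13103, at 119 CPM in control, was not called. Some of the relatives had levels within the range of the Oog genes. Gm13023, Pramel25 in RefSeq, averaged 10111 ± 695 CPM in EtP and 4357 ± 1214 CPM in control (SD, n = 3 each), with a log2 fold change of 1.22 ± 0.24 (SE, adjusted p = 0.00403 by edgeR). Gm10436, Pramel51 on chromosome 12, averaged 6081 ± 469 CPM in EtP and 2345 ± 528 CPM in control, with a log2 fold change of 1.38 ± 0.23 (SE, adjusted p = 0.00149 by edgeR).

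Among the lower relatives, Gm3147 had no count in EtP and 49.5 ± 19.9 CPM in control, and A430089I19Rik had 0.184 ± 0.319 CPM in EtP and 51.2 ± 8.31 CPM in control (SD, n = 3 each). Gm7971 and Gm16429 had the same counts as each other in every control library. In EtP libraries Gm7971 had none and Gm16429 had 5 counts, all in replicate 3.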
